A study of Mus musculus with 24 samples.

Results

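The comparison described here set myoblasts depleted of *Baf250a* directly against myoblasts depleted of *Brd9*, with no reference to control cells. Every count column of these knockdown (KD) lines was used except the second Zn library of *Baf250a* KD, which held very few counts, so 5 *Baf250a* KD libraries were compared with 6 *Brd9* KD libraries, 11 of the 24 in the series. The series is RNA-seq of proliferating mouse myoblasts of 4 lines (scrambled-shRNA control, scr, and KD of *Baf180*, *Baf250a* or *Brd9*), each grown without added metal (NT), with CuSO4 or with ZnSO4, with 2 libraries per line and treatment. By the study's methods the cells were C2C12, a mouse myoblast line, given 100 µM CuSO4 or 50 µM ZnSO4 for 48 h, and each KD was a stable lentiviral shRNA population selected with puromycin. The sample labels instead name primary mouse myoblasts and lipofectamine-mediated KD, and they give no age, strain or clone. The *Baf250a* KD libraries were NT 1, NT 2, Cu 1, Cu 2 and Zn 1, and the *Brd9* KD libraries were both replicates of NT, Cu and Zn. By those methods all 11 carry an integrated shRNA and went through the same selection, a point on which the labels differ. Since each depletion rests on 1 line of cells, the effect of the targeted subunit and any other difference between the cell populations cannot be told apart. The methods call the replicates independent biological replicates. Values of *Baf250a* KD are listed below in the order NT 1, NT 2, Cu 1, Cu 2, Zn 1.

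SWI/SNF complexes are ATP-driven machines that slide or evict nucleosomes and so change how open chromatin is. Baf250a, the product of *Arid1a*, is a DNA-binding subunit of canonical BAF (cBAF), a complex known for its activity at distal enhancers. Brd9 is a bromodomain protein of non-canonical BAF (ncBAF), which lacks the ARID subunits and Smarcb1 and is known for binding near promoters and CTCF sites, while PBAF is the form that holds Pbrm1 (Baf180), Arid2, Brd7 and Phf10. In myoblasts the catalytic subunits of these complexes work with MyoD to open muscle genes.

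The study lists 2 shRNAs for each targeted gene, and which of them was used for the sequenced cells is not given in the sources used here. Their target sites are shown because they define what was depleted in each line, as the sense strand of the transcript, 5′ to 3′:
Baf250A shRNA 1: ctttatagtatggcgagttaa
Baf250A shRNA 2: cctaggcagcctaactataat
Brd9 shRNA 1: tggactttggcacgatgaaag
Brd9 shRNA 2: caccgaatggtgtccaataag
Each site is 21 bases long and matched transcripts of its own gene alone in the GENCODE M21 annotation of GRCm38. The first Baf250A site lies in exon 20 of *Arid1a*, in the 3′ UTR (chr4:133679414-133679434, minus strand), and the second in exon 8, in coding sequence (chr4:133694042-133694062, minus strand). For *Brd9* the first site lies in coding sequence of exon 5 (chr13:73940726-73940746, plus strand) and the second in the 3′ UTR in exon 16 (chr13:73960500-73960520, plus strand).

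The 5 *Baf250a* KD libraries held 14902630 to 25700122 counts and the 6 *Brd9* KD libraries 12719173 to 28759670, so that depth did not separate the lines, and the library left out held 495778. No pair of the 11 had identical counts. On principal components of log2 CPM (read counts scaled to the size of each library) the lines separated on the first axis, which held 69.7% of the variance, with scores of 49.9 to 55.4 for *Baf250a* KD and -46.1 to -41.3 for *Brd9* KD. On the second axis (9.93% of the variance) the Zn library of *Baf250a* KD was lowest, at -38.6. The other 10 libraries lay between -17.2 and 22.8.

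The targeted transcripts went the way the labels say. *Arid1a* was at 101, 98.8, 118, 114 and 92.1 CPM in *Baf250a* KD, while its lowest, median and highest values in *Brd9* KD were 299.7, 321 and 331 CPM (log2 difference -1.62 ± 0.062, estimate ± SE, 3.06-fold lower, edgeR quasi-likelihood test with Benjamini-Hochberg adjustment, adjusted p = 1.49e-10). *Brd9* was at 40.0, 38.2, 37.9, 34.8 and 53.8 CPM in *Baf250a* KD and 13.6, 16.5 and 18.3 CPM in *Brd9* KD (1.36 ± 0.10, adjusted p = 9.74e-08). For neither gene did the groups overlap. The scr libraries ranged from 266 to 308 CPM for *Arid1a* and from 27.2 to 32.4 CPM for *Brd9*, so each KD line kept a good part of the targeted message. Here and below, scr CPM were scaled with factors from all 24 libraries and KD CPM with factors from the 11 compared. In all differences below, a positive log2 value means higher in *Baf250a* KD.

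**Figure D1:**
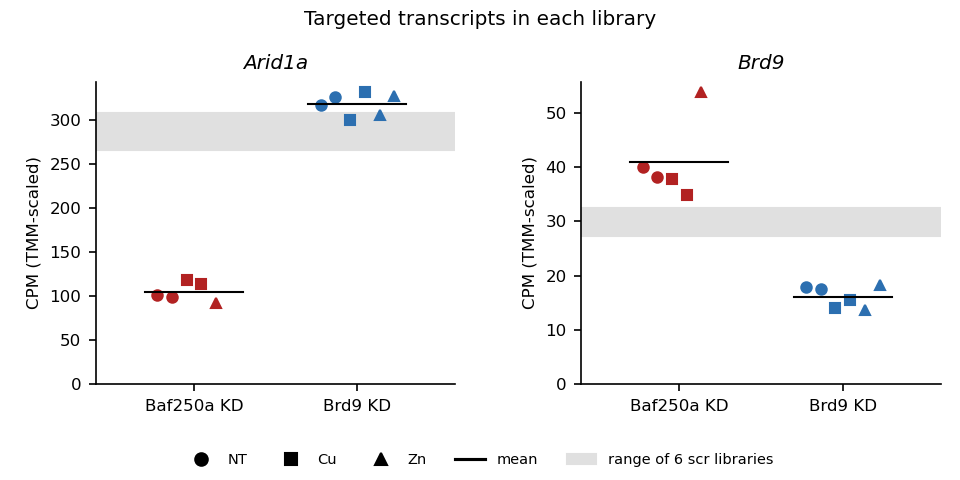
CPM of *Arid1a* and *Brd9* in each *Baf250a* KD (red) and *Brd9* KD (blue) library, with the symbol giving the treatment, the black line the mean and the grey band the range of the 6 scr libraries. *Arid1a* is below the band in all 5 *Baf250a* KD libraries, and *Brd9* is below it in all 6 *Brd9* KD libraries and above it in all 5 of *Baf250a* KD. The band was scaled with factors from all 24 libraries and the points with factors from 11, so a small gap between them is uncertain.

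Of the other subunits, the cBAF paralog *Arid1b*, which can take the place of *Arid1a*, was slightly higher in *Baf250a* KD, at 157, 159, 159.9, 157 and 146 CPM against 127, 132 and 135 CPM (0.24 ± 0.045, adjusted p = 0.000469), without overlap. That call was lost after correction for GC content and transcript length (0.05, adjusted p = 0.301). *Dpf1*, a plant homeodomain finger subunit of cBAF, was lower, at 3.95, 1.93, 4.12, 3.91 and 6.56 CPM against 7.17, 8.43 and 10.3 CPM (-1.07 ± 0.20, adjusted p = 0.000436). Its relative *Dpf2* differed by -0.24 ± 0.056. The ncBAF scaffold genes *Bicra* and *Bicral* were not called (-0.12 ± 0.094 and -0.15 ± 0.062). *Bicral* sat close to the threshold (adjusted p = 0.0513) and passed it in 9 of 23 alternative settings. Among the 4 PBAF genes *Phf10* alone was called, at 71.7, 71.0, 75.6, 71.7 and 86.0 CPM against 113, 117 and 124 CPM (-0.63 ± 0.050, adjusted p = 1.85e-07), while *Pbrm1*, *Arid2* and *Brd7* gave 0.012, -0.025 and -0.067. Once GC content and length were corrected for, all 4 were called lower, *Pbrm1* at -0.126, *Arid2* at -0.198 and *Brd7* at -0.121, and so were *Bicra* (-0.262) and *Smarca4* (-0.239). Of 15 tested subunits that several forms share, 1 was called higher and 6 lower, where 29.2% and 28.4% of all genes were. Lower were *Actl6a*, an actin-like subunit (-0.62 ± 0.069, adjusted p = 5.08e-06), and *Smarcb1*, a core subunit that ncBAF lacks (-0.40 ± 0.057, adjusted p = 4.13e-05), among others. *Smarcd3*, the muscle form of the BAF60 subunit, was at 33.5 to 48.4 CPM against 47.6 to 51.6 CPM with overlap (-0.32 ± 0.080, adjusted p = 0.00394), and the scaffold subunit *Smarcc1* gave -0.15 ± 0.046, adjusted p = 0.0141, also with overlap and not called without Cu 2 of *Baf250a* KD (adjusted p = 0.107) or NT 1 of *Brd9* KD (adjusted p = 0.105). The ATPase genes were *Smarca4* (-0.091 ± 0.053, not called) and *Smarca2* (0.32 ± 0.071, adjusted p = 0.00173), the latter at 17.8 to 23.3 CPM against 15.5 to 18.5 CPM with overlap and not called after correction for GC content and transcript length. When a change of more than 1.5-fold was required, 2 of the cBAF genes (*Arid1a* and *Dpf1*), 1 ncBAF gene (*Brd9*) and none of the shared or PBAF genes were called.

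The lines differed in most of what they expressed. Of 14679 genes tested with treatment as a covariate, 8452 (57.6%) passed an adjusted p of 0.05 (edgeR), 4290 higher (29.2%) and 4162 lower (28.4%) in *Baf250a* KD, and the median log2 difference over all genes tested was -0.013. Most of these differences were small, with a median size of 0.535 on the log2 scale. At least 2-fold differences that passed the test numbered 1921 (13.1%), of which 1155 were higher (7.87%) and 766 lower (5.22%). At 4-fold the counts were 392 and 188, and at 16-fold 63 and 24. For 5595 called genes (38.1% of those tested) no *Baf250a* KD library overlapped any *Brd9* KD library.

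**Figure D2:**
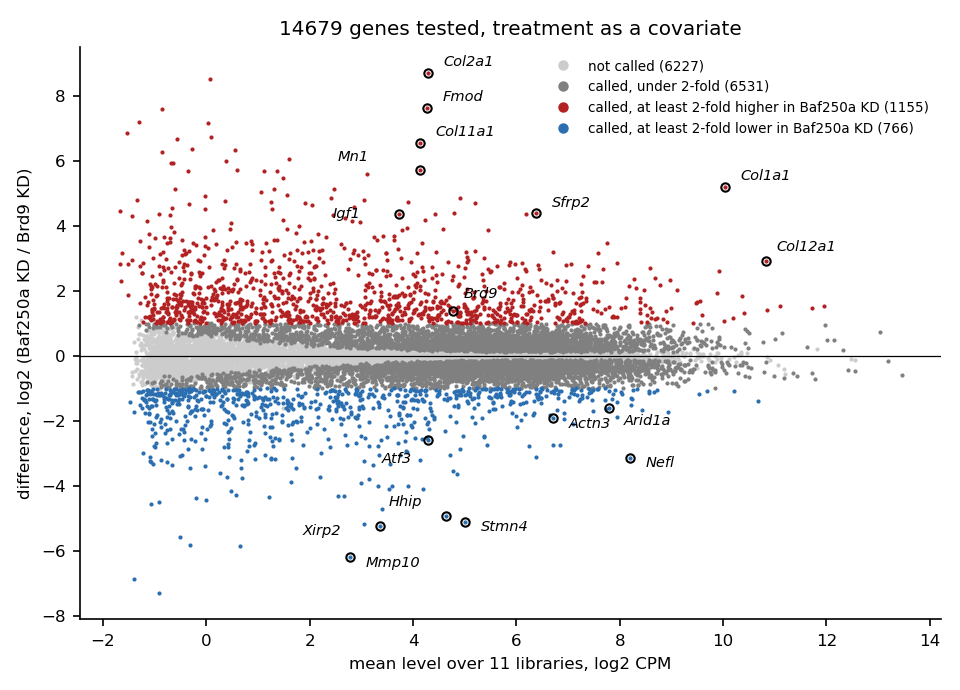
Log2 difference between the lines (y axis, positive where higher in *Baf250a* KD) against mean log2 CPM over the 11 libraries (x axis), 1 point per gene tested. Red and blue points passed the test with at least a 2-fold difference, 1155 higher and 766 lower, and dark grey points passed it with less. The circled collagen genes *Col2a1*, *Col11a1* and *Col1a1* lie at the top and *Mmp10*, *Xirp2*, *Stmn4* and *Hhip* at the bottom.

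Genes of the extracellular matrix, the protein network that cells lay down around them, gave many of the largest differences among genes with a mean of at least 5 CPM. Of 23 collagen genes, 22 passed the filter on low counts and all 22 were called, 19 higher and 3 lower, with a median log2 difference of 1.67 against -0.013 for all genes. *Col1a1*, the main chain of fibrillar collagen I, was at 2245, 2261, 2050.0, 2004 and 2589 CPM in *Baf250a* KD and 48.8, 64.2 and 74.3 CPM in *Brd9* KD (36.7-fold, 5.20 ± 0.067, adjusted p = 2.67e-14). The cartilage fibril chain *Col2a1* was at 38.7, 37.4, 41.8, 48.8 and 46.8 CPM against 0.0349, 0.119 and 0.210 CPM (8.69 ± 0.17, adjusted p = 5.23e-13). That is 4156 counts in all over the 5 libraries and 12 over the 6, so the message was close to absent in *Brd9* KD and the size of the difference rests on few reads. *Col11a1*, which nucleates such fibrils, went from 0.244, 0.420 and 0.683 CPM in *Brd9* KD to 41.9, 44.1, 31.3, 29.9 and 42.2 CPM (6.55 ± 0.11, adjusted p = 2.17e-13). *Col12a1*, a chain on the fibril surface, was abundant in both lines, at 3628, 3834, 3615, 3372 and 2914 CPM against 388, 449 and 492 CPM (2.92 ± 0.054, adjusted p = 3.21e-13), and *Col8a2*, a short-chain collagen, differed by 4.78 ± 0.18. None of these 5 overlapped, but the rule by which all except *Col12a1* were named required this. Of all genes tested, 38.1% were called without overlap. Their scr levels were nearer to *Brd9* KD: *Col1a1* lay at 31.2 to 44.1 CPM and *Col12a1* at 103 to 151 CPM.

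Proteins that bind and cross-bridge those fibres followed. In the list of matricellular proteins and proteoglycans 23 of 27 members were tested, 21 higher and 2 lower (median 1.57). *Fmod*, a small leucine-rich proteoglycan that spaces collagen fibrils, was at 52.5, 48.7, 41.4, 30.8 and 36.5 CPM against 0.105, 0.211 and 0.304 CPM (7.62 ± 0.15, adjusted p = 6.76e-13). Its relatives *Omd* and *Prelp* differed by 4.86 ± 0.37 and 4.17 ± 0.13, the former with its lowest *Baf250a* KD value, 3.70 CPM, in the Zn library. *Islr*, a secreted marker of mesenchymal stromal cells, was at 423, 379, 343, 337 and 365 CPM against 31.2, 46.0 and 51.5 CPM (3.16 ± 0.076, adjusted p = 2.62e-12), and *Ccn5*, a connective-tissue growth modulator, gave 3.57 ± 0.12. *Postn*, which encodes periostin, was at 189, 205, 164, 144 and 119.7 CPM against 29.1, 62.3 and 89.3 CPM (1.57 ± 0.20, adjusted p = 1.68e-05), but here scr cells, at 96.9 to 267 CPM, overlapped with *Baf250a* KD.

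The receptors and enzymes of the matrix were less uniform. Of 24 integrin and laminin genes tested (28 in the list), 16 were higher and 6 lower (median 0.65). The collagen receptor subunit *Itga11* was at 75.1, 75.7, 51.2, 49.0 and 64.4 CPM against 1.15, 2.41 and 2.81 CPM (4.86 ± 0.11, adjusted p = 1.18e-12), and *Itga1*, another collagen receptor subunit, gave 2.62 ± 0.18. Laminin chains of basement membrane were also higher, with *Lama1* at 14.5 to 22.6 CPM against 0.152 to 0.629 CPM (5.60 ± 0.19, adjusted p = 5.48e-11) and *Lama4* at 72.5 to 81.1 CPM against 2.43 to 3.34 CPM (4.69 ± 0.083, adjusted p = 2.32e-13). Among 23 tested matrix proteases and inhibitors (27 in the list), 18 were higher and 4 lower (median 1.13). *Timp3*, an inhibitor of metalloproteases, was at 742, 741, 728, 662 and 718 CPM against 101, 110.1 and 115 CPM (2.71 ± 0.047, adjusted p = 2.32e-13). The procollagen-trimming enzyme *Adamts2* gave 2.57 ± 0.080 and *Adam12*, a protease of myoblast fusion, 2.11 ± 0.060. *Mmp10*, which encodes stromelysin-2, had the lowest log2 difference of all genes named, at 0.157, 0, 0.370, 0.244 and 0.0697 CPM against 8.87, 10.6 and 17.7 CPM (-6.18 ± 0.23, adjusted p = 1.22e-10), with 30.4 to 66.3 CPM in scr. The 5 *Baf250a* KD libraries held 17 reads of it in all. Beside these matrix genes, the summed level of 9 fibroblast and fibroadipogenic markers was 204 to 218 CPM in *Baf250a* KD and 68.3 to 95.6 CPM in *Brd9* KD.

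Secreted signals and their antagonists formed a further set of large differences. Of 36 tested Wnt pathway genes (45 in the list), 29 were higher and 4 lower in *Baf250a* KD (median 1.41). *Sfrp2*, a secreted Wnt-binding protein, was at 191, 203, 170.0, 159 and 146 CPM against 7.4, 7.85 and 9.94 CPM (4.39 ± 0.093, adjusted p = 1.05e-12). The ligand *Wnt4*, which the study names, was at 20.8, 22.3, 41.2, 46.1 and 19 CPM against 3.80, 4.83 and 7.26 CPM (2.44 ± 0.11, adjusted p = 7.46e-10), with its highest values in the Cu libraries of *Baf250a* KD. *Dkk2* and *Rspo2*, secreted modulators of Wnt receptors, gave 3.09 ± 0.15 and 3.26 ± 0.18. *Rnf43*, a ubiquitin ligase that removes Frizzled receptors, was at 5.30 to 7.94 CPM against 0.0423 to 0.158 CPM (6.04 ± 0.23, adjusted p = 1.34e-10). *Axin2*, a common readout of beta-catenin activity chosen here after its values were seen, was at 22.7, 19, 23.1, 19.9 and 22 CPM against 3.49, 3.77 and 4.47 CPM (2.48 ± 0.091, adjusted p = 1.02e-10). No Wnt list member was called for a difference that depended on treatment, but 3 were after correction for GC content and length. Log2 differences in the list ran from -6.85 to 6.04.

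Growth-factor genes pointed mostly the same way. In the list of TGF-beta and BMP genes 38 of 45 were tested, 28 higher and 6 lower (median 0.70). The ligands *Bmp4* and *Tgfb3* were at 105 to 128 CPM against 15.5 to 17.7 CPM (2.82 ± 0.066, adjusted p = 2.46e-12) and at 341 to 433 CPM against 50 to 71.6 CPM (2.68 ± 0.066, adjusted p = 2.96e-12). The activin antagonist *Fst* was at 59.7, 58.6, 81.9, 72.9 and 45.7 CPM against 5.09, 6.54 and 8.17 CPM (3.18 ± 0.076, adjusted p = 2.46e-12), and the inhibitory mediator *Smad6* gave 2.73 ± 0.10, so agonists and antagonists were both higher. Of 31 tested IGF and FGF genes (33 in the list), 17 were higher and 10 lower (median 0.51). *Igf1*, a growth factor for muscle, was at 33.1, 35.5, 23.2, 19.1 and 26.4 CPM against 0.349, 1.61 and 2.81 CPM (4.35 ± 0.21, adjusted p = 1.45e-09). *Fgf2* gave 2.51 ± 0.11 and the receptor *Fgfr4* 2.74 ± 0.22, while *Hhip*, a cell-surface inhibitor of Hedgehog ligands, went the other way, at 1.64, 1.41, 0.832, 1.65 and 1.81 CPM against 36.4, 44.2 and 51.8 CPM (-4.92 ± 0.15, adjusted p = 1.61e-11). Of 21 tested Notch pathway genes (27 in the list), 12 were higher and 4 lower, among them the co-activator *Maml2* (1.99 ± 0.11) and the repressor *Hes6* (1.35 ± 0.066), and *Heyl* (1.17 ± 0.13) overlapped between the lines.

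The muscle program did not move as a block. Of 15 tested myogenic regulators (19 in the list), 9 were higher and 5 lower (median 0.64). *Myod1*, the determination factor of muscle, chosen here after its values were seen, was higher, at 155, 135, 122, 135 and 125 CPM against 72.5, 79.6 and 93.8 CPM (0.70 ± 0.058, adjusted p = 2.43e-07). Its relative *Myf5* was lower, at 37.4, 39.8, 40.5, 40.2 and 23.2 CPM against 86.8, 98 and 109 CPM (-1.45 ± 0.12, adjusted p = 3.29e-07), as were the satellite-cell factor *Pax7*, at 0.939, 0.377, 1.06, 0.856 and 0.767 CPM against 2.73, 3.50 and 5.34 CPM (-2.19 ± 0.27, adjusted p = 1.05e-05), and *Msc*, a repressor of MyoD-type factors, at 1.41, 0.424, 1.02, 0.856 and 0.628 CPM against 11, 14.8 and 15.8 CPM (-3.91 ± 0.20, adjusted p = 2.44e-09). *Myog*, which drives differentiation, was higher at 11, 8.29, 6.52, 7.03 and 11.5 CPM against 2.17, 2.90 and 3.51 CPM (1.62 ± 0.14, adjusted p = 3.44e-07). At the same time the inhibitors of such factors *Id2* and *Id3* were higher (1.68 ± 0.089 and 1.93 ± 0.076). None of these 7 genes overlapped between the lines, beside 38.1% of all genes tested that were called without overlap.

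Among structural muscle genes the larger changes also split. Of 32 tested sarcomere and fusion genes (42 in the list), 20 were higher and 6 lower (median 0.62). The myosin heavy chains *Myh7* and *Myh3* were higher, at 4.16 to 5.75 CPM against 0.222 to 0.759 CPM (3.57 ± 0.21, adjusted p = 1.03e-08) and at 7.46 to 9.24 CPM against 1.48 to 3 CPM (1.92 ± 0.15, adjusted p = 1.49e-07). The calcium pump *Atp2a1* gave 1.42 ± 0.095. *Actn3*, the fast-fibre alpha-actinin, was lower, at 47.4, 41.9, 34.9, 30.5 and 52.7 CPM against 134, 157 and 184 CPM (-1.92 ± 0.087, adjusted p = 7.29e-10). *Xirp2*, an actin-binding protein of muscle attachment sites, was at 0.470, 0.754, 0.509, 0.306 and 0.279 CPM against 10.8, 17.9 and 26.3 CPM (-5.22 ± 0.22, adjusted p = 3.32e-10), with 41.2 to 126 CPM in scr. The cytoskeletal gene *Synpo2l*, which the study names, gave -0.82 ± 0.066.

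Neuronal cytoskeleton genes were lower in *Baf250a* KD. Of 10 neural markers, 6 were tested, 5 of them lower and none higher (median -2.39). The summed level of the 10 markers was 71.9 to 99.2 CPM in *Baf250a* KD and 677 to 742 CPM in *Brd9* KD, and *Snap25* had no count in any of the 11 libraries. Neurofilament light chain, *Nefl*, was at 51.5, 44.5, 59.7, 64.2 and 61.0 CPM against 455, 497 and 532 CPM (-3.13 ± 0.064, adjusted p = 8.42e-13), and the medium chain *Nefm* gave -2.78 ± 0.12. *Tubb3*, the beta-tubulin of neurons, was at 8.74 to 13 CPM against 59.8 to 82.5 CPM (-2.73 ± 0.11, adjusted p = 1.8e-10) and *Map2*, a microtubule-binding protein, gave -2.04 ± 0.14. Outside that list, *Stmn4*, a regulator of microtubules, was at 1.76, 1.79, 1.62, 1.22 and 1.95 CPM against 48.8, 57.9 and 65.7 CPM (-5.10 ± 0.090, adjusted p = 2.32e-13), and *St8sia2*, which adds polysialic acid to NCAM, at 0.509, 0.612, 0.277, 0.367 and 0.279 CPM against 13, 14.3 and 17.6 CPM (-5.16 ± 0.13, adjusted p = 4.51e-12). For *Nefl*, *Tubb3* and *Stmn4* the scr libraries, at 252 to 319, 65.6 to 113 and 69.5 to 97.9 CPM, were far above *Baf250a* KD too. For *Map2* they were at 3.62 to 5.99 CPM, overlapping with *Baf250a* KD (2.37 to 3.96 CPM) and below *Brd9* KD (9.60 to 16.2 CPM).

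The other genes at the ends of the ranking had varied roles. *Mn1*, a transcriptional cofactor, was at 37.1, 36.2, 38.6, 45.4 and 31.2 CPM against 0.419, 0.681 and 1.06 CPM (5.70 ± 0.14, adjusted p = 2.46e-12), and *Rgs4*, which quenches G-protein signals, at 11.3, 10.6, 13.1, 12.5 and 11.3 CPM against 0.158, 0.256 and 0.683 CPM (5.12 ± 0.21, adjusted p = 2.37e-10). On the lower side stood the phospholipase *Plcg2* (-4.70 ± 0.15, adjusted p = 2.26e-11), the angiogenesis inhibitor *Vash1* (-4.11 ± 0.14, adjusted p = 4.33e-11), the tetraspanin *Tspan7* (-4.08 ± 0.13, adjusted p = 2.99e-11), the histone chaperone *Nap1l2* (-4.33 ± 0.27, adjusted p = 1.42e-08) and the lectin *Colec10* (-4.32 ± 0.19, adjusted p = 5.15e-10). *Plcg2*, for example, was at 0.861, 0.471, 1.02, 0.489 and 0.628 CPM against 17.4, 18.6 and 20.2 CPM, and scr at 31.6 to 43.0 CPM.

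**Figure D3:**
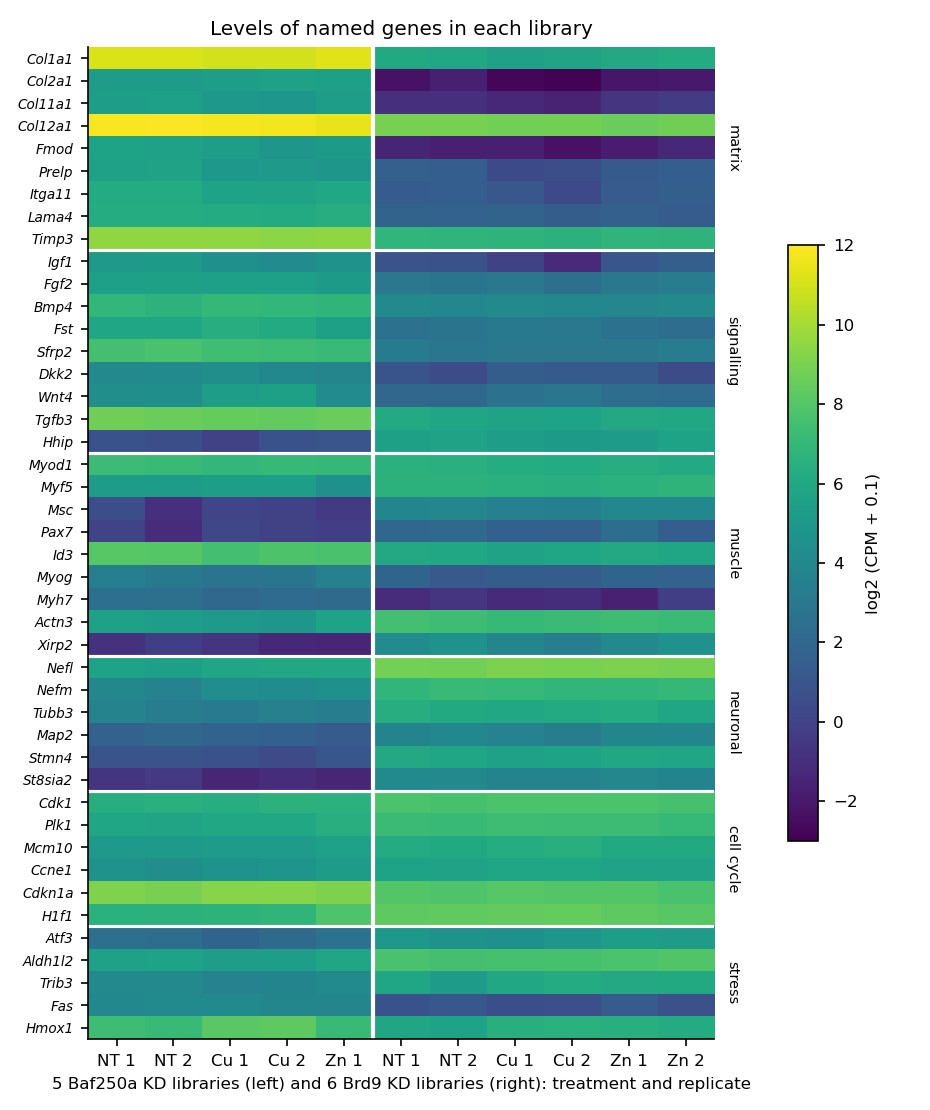
Colour gives log2 (CPM + 0.1) of named genes (rows, grouped by role) in the 5 *Baf250a* KD and 6 *Brd9* KD libraries (columns, split by the white line). Within a line the libraries of all 3 treatments look alike for nearly every gene, and the step in colour falls at the white line, upward to the left for matrix and signalling genes other than *Hhip*, and downward for neuronal genes.

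Proliferation genes were lower in *Baf250a* KD. Of 45 genes of G2 and mitosis, all tested, 43 were lower and none higher (median -0.75), 8 of them at least 2-fold. *Cdk1*, the kinase that starts mitosis, was at 82.8, 90.0, 82.4, 97.6 and 96.0 CPM against 195, 212 and 218 CPM (-1.21 ± 0.060, adjusted p = 1.52e-09). *Ube2c*, which helps degrade cyclin B, was at 45.2, 51.6, 46.6, 51.1 and 51.0 CPM against 116, 119.5 and 131 CPM (-1.31 ± 0.060, adjusted p = 8.24e-10). The mitotic kinase *Plk1* gave -1.19 ± 0.094 and the kinetochore motor *Cenpe* -1.22 ± 0.20. *Cenpe* was at 34.2 to 43.7 CPM against 59.8 to 141 CPM, highest in NT 2 and Zn 2 of *Brd9* KD (141 and 139 CPM). Its scr range, 30.4 to 161 CPM, covered both lines. Of 44 S phase genes, all tested, 35 were lower and none higher (median -0.48), though none reached 2-fold and 5 were called when more than 1.5-fold was required. *Ccne1* (cyclin E) was at 25.9, 21.5, 25.6, 27.4 and 38.6 CPM against 49.2, 51.8 and 58.5 CPM (-0.92 ± 0.11, adjusted p = 7.22e-06), and the origin-licensing genes *Orc1*, *Cdt1* and *Mcm10* gave -0.92 ± 0.071, -0.92 ± 0.067 and -0.95 ± 0.082. *Cdkn1a*, which encodes the cell cycle inhibitor p21, was higher, at 549, 493, 623, 617 and 523 CPM against 210.0, 257 and 270.4 CPM (1.16 ± 0.062, adjusted p = 3.81e-09). *Ccnd3* (cyclin D3) gave 0.60 ± 0.050 and *Cdk4* -0.44 ± 0.069.

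Histone genes that are transcribed during DNA synthesis showed the same direction. All 47 that were tested, of 55 listed, had negative differences, 44 of them called (median -0.93) and 21 at least 2-fold lower. *H1f1*, a linker histone, was at 94.7, 101, 104, 113 and 230.3 CPM against 273, 313 and 352 CPM (-1.32 ± 0.18, adjusted p = 2.62e-05), and the core histone genes *H2bc18* and *H2bc11* gave -1.29 ± 0.088 and -1.41 ± 0.18. These genes are near-identical copies and reads that mapped to more than 1 place were not kept, so a level of a single copy is uncertain. In *Baf250a* KD the *H1f1* level in the Zn library stood above that in the other 4.

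Stress programs diverged. Of 27 tested genes of the integrated stress response (28 in the list), the program by which ATF4 raises amino acid metabolism, 20 were lower and 5 higher in *Baf250a* KD (median -0.64). *Atf3*, a transcription factor of that program, was at 5.75, 5.13, 3.47, 4.40 and 6.28 CPM against 23.5, 30.5 and 42.2 CPM (-2.60 ± 0.11, adjusted p = 2.67e-10). The mitochondrial folate enzyme *Aldh1l2* was at 47.2, 51.9, 43.0, 41.9 and 55.3 CPM against 193, 205 and 244 CPM (-2.11 ± 0.059, adjusted p = 9.04e-12) and the pseudokinase *Trib3* gave -1.92 ± 0.15, without overlap for any of the 3 genes, whose scr levels (49.5 to 75.5, 313 to 393 and 56.7 to 96.1 CPM) were above *Baf250a* KD as well. *Vldlr*, a lipoprotein receptor on the same list, was higher (1.70 ± 0.10, adjusted p = 9.67e-09). Of 27 p53 targets, 16 were higher and 4 lower (median 0.35), led by the death receptor *Fas*, at 15.8, 17.2, 17.3, 15 and 14.6 CPM against 1.44, 1.58 and 2.36 CPM (3.21 ± 0.13, adjusted p = 2.39e-10), and the growth-arrest gene *Gadd45g* (1.74 ± 0.064). Of 21 tested heat shock chaperones (23 in the list), 14 were called (66.7%, beside 57.6% of all genes), 5 higher and 9 lower. *Hspa1b*, a near-identical copy of a neighbour, gave 1.25 ± 0.12. The small chaperones *Hspb8* and *Hspb1* gave -0.98 ± 0.081 and -0.94 ± 0.059.

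Genes of zinc and copper handling, the subject of the study, differed often but by little. Of 37 tested (43 in the list), 18 were higher and 12 lower (median 0.18), and 4 were called when more than 1.5-fold was required. *Slc30a4*, a zinc exporter of vesicles, was the lowest, at 113, 126, 121, 116 and 91.7 CPM against 211, 296 and 341 CPM (-1.36 ± 0.11, adjusted p = 2.6e-07), and *Sod3*, the secreted Cu/Zn superoxide dismutase, the highest, at 94.1, 93.1, 81.1, 79.4 and 99.2 CPM against 39.5, 43.3 and 52.3 CPM (1.03 ± 0.070, adjusted p = 4.01e-08). *Cox17*, a copper chaperone for cytochrome oxidase, gave -0.92 ± 0.081 and the zinc transporter *Slc39a13* 0.78 ± 0.049. *Mtf1*, the metal-sensing transcription factor, was at 33.4, 34.7, 38.6, 37.8 and 38.6 CPM against 43.0, 46.8 and 49.0 CPM (-0.34 ± 0.056, adjusted p = 0.000172), without overlap. The copper exporter *Atp7a* was higher (0.47 ± 0.080, adjusted p = 0.000232), and the copper importer *Slc31a1* was not called (-0.074 ± 0.059).

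The MTF1 targets that bind or export metal are given by treatment, since they were highest in Zn in both lines. *Mt1*, which encodes a metallothionein, was at 276 and 261 CPM in the NT libraries of *Baf250a* KD and 167 and 155 CPM in those of *Brd9* KD (log2 difference 0.74), at 331 and 327 against 222 and 232 CPM in Cu (0.54), and at 497 against 503 and 448 CPM in Zn (0.063). *Mt2* went from 107 and 109 against 66.1 and 60.9 CPM in NT (0.77) to 213 against 285 and 265 CPM in Zn (-0.37), so its order turned. Both were called over all treatments (0.50 ± 0.088 and 0.36 ± 0.13), *Mt2* only just (adjusted p = 0.0342). Without a treatment term neither *Mt1* nor *Slc30a1* was called. *Mt2* was no longer called in 8 of the 11 fits that left out 1 library. The zinc exporter *Slc30a1* was at 25.8, 29.4, 24.2, 25.5 and 49.5 CPM against 15.2, 17.3 and 32.7 CPM (0.65 ± 0.070, adjusted p = 3.64e-06), and the zinc importer *Slc39a10* gave -0.20 ± 0.065 (adjusted p = 0.0193), a call that was lost without any of 4 single libraries. Of the other genes the study names, *Klf4* was higher (1.53 ± 0.077), *Egr1* overlapped (0.49 ± 0.086), the mitochondrial phosphate and copper carrier *Slc25a3* gave -0.44 ± 0.078, and *Crip2* and *Gpr137b* were not called (-0.090 and 0.013).

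Redox genes changed in both directions. Of 36 tested NRF2 targets and glutathione genes (38 in the list), 14 were higher and 14 lower (median -0.061). *Hmox1*, the haem-degrading enzyme, was at 159, 139, 289, 311 and 137 CPM against 52.6, 80.7 and 94.7 CPM (1.39 ± 0.12, adjusted p = 4.65e-07), and the quinone reductase *Nqo1* at 66.7, 64.3, 154, 163 and 84.3 CPM against 30.9, 48.0 and 74.3 CPM (0.96 ± 0.097, adjusted p = 1.95e-06). In both lines these genes were higher in Cu than in NT. Lower in *Baf250a* KD were the cystine importer *Slc7a11*, at 5.56, 7.49, 13.8, 15.5 and 9.55 CPM against 17.8, 29.1 and 40.4 CPM (-1.46 ± 0.11, adjusted p = 8.68e-08), and the glutathione transferase *Gsta4*, at 97.0, 84.9, 237, 232 and 146 CPM against 215, 304 and 530.4 CPM (-1.18 ± 0.072, adjusted p = 1.3e-08), the latter with overlap between the Cu libraries of *Baf250a* KD and the NT libraries of *Brd9* KD. *Gsta2*, a related transferase at low level, gave -1.90 ± 0.23.

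Inflammatory genes were mostly higher in *Baf250a* KD. Of 17 tested cytokines and chemokines (29 in the list), 14 were higher and 2 lower (median 1.86). *Il1rn*, the antagonist of the interleukin-1 receptor, was at 75.8, 80.0, 73.1, 67.0 and 63.4 CPM against 5.47, 7.46 and 10.3 CPM (3.22 ± 0.095, adjusted p = 1.42e-11), the chemokines *Ccl9* and *Ccl8* gave 3.65 ± 0.20 and 3.16 ± 0.20, and the prostaglandin synthase *Ptgs2* 1.99 ± 0.11. Of 31 tested interferon-stimulated and RNA-sensing genes (48 in the list), 22 were higher and 5 lower (median 0.63). *Parp14* was at 2.78, 3.30, 2.59, 2.26 and 2.44 CPM against 0.0698, 0.428 and 0.791 CPM (2.71 ± 0.34, adjusted p = 1.61e-05), but scr cells had 1.78 to 3.12 CPM, like *Baf250a* KD. The peptide transporter *Tap1* gave 2.40 ± 0.15, and the partners *Parp9* and *Dtx3l*, which share a promoter, 1.64 ± 0.092 and 1.51 ± 0.090. Of 27 immediate early genes, 14 were higher and 5 lower, with *Egr2* at 2.63 ± 0.14.

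Imprinted genes, which are read from 1 parental copy, were higher in 15 and lower in 5 of 23 tested (35 in the list, median 0.80). *Mest* was at 17.8, 17.3, 16, 14.3 and 11 CPM against 0.419, 0.580 and 0.974 CPM (4.57 ± 0.15, adjusted p = 4.48e-11) and *Peg10* at 421 to 629 CPM against 143 to 181 CPM (1.77 ± 0.085, adjusted p = 1.21e-09), while *Plagl1*, an imprinted zinc-finger gene, was lower (-1.53 ± 0.20, adjusted p = 1.93e-05). Of 21 tested *Hox* genes (42 in the list), 10 were called (47.6%, beside 57.6% of all genes), 9 higher and 1 lower (median 0.28). Of 23 glycolysis genes, 9 were higher and 6 lower, near the 29.2% and 28.4% of all genes, among them *Pdk1*, which holds pyruvate back from mitochondria, at 89.5 to 101 CPM against 28.0 to 40.0 CPM (1.51 ± 0.084, adjusted p = 5.15e-09), and the enolase *Eno2* (1.10 ± 0.076). Sterol synthesis genes were lower in 12 and higher in 4 of 26 (median -0.097). The share called, 61.5%, was near the 57.6% of all genes.

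Genes of translation and RNA processing showed small shifts in 1 direction. All 79 cytosolic ribosomal protein genes had negative differences, 60 of them called (median -0.39), and none reached 2-fold. Many of these genes have near-identical processed copies elsewhere, which makes single levels uncertain where reads were not unique. *Rps12* was at 213, 237, 234, 298 and 223 CPM against 391, 427 and 509.6 CPM (-0.88 ± 0.068, adjusted p = 1.29e-07) and *Rpl24* gave -0.73 ± 0.14. Of 63 tested splicing genes (67 in the list), 43 were lower and 5 higher (median -0.33), with *Snrpf*, a core snRNP protein, at -0.95 ± 0.076 and *Mbnl1*, a splicing regulator of muscle, at 0.83 ± 0.12. When more than 1.5-fold was required, 3 ribosomal protein genes and 2 splicing genes were called. Of 71 tested nuclear genes of oxidative phosphorylation (73 in the list), 26 were called (36.6%, beside 57.6% of all genes), 14 higher and 12 lower (median 0.039). After correction for GC content and length 24 members of that list were called higher and 13 lower. Of the remaining RNAs, 1 of 18 tested rRNA-derived and small structural RNAs was called, and it was lower. Of 10 tested transcripts of the mitochondrial genome, 3 were called, all lower and all with overlap. *mt-Co2* (-0.83 ± 0.26), a cytochrome oxidase subunit, had a mean of only 1.06 CPM. *mt-Nd1* (-0.545 ± 0.17) differed by -0.512 in NT, -0.062 in Cu and -1.418 in Zn. For *mt-Nd2* (-0.624 ± 0.136) these were -0.595, -0.265 and -1.256. Their Zn values rest on the single Zn library of *Baf250a* KD. The call of *mt-Co2* was lost on thinned counts (adjusted p = 0.126), without Zn 1 of *Baf250a* KD (adjusted p = 0.055) and without NT 1 of *Brd9* KD (adjusted p = 0.0524).

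**Figure D4:**
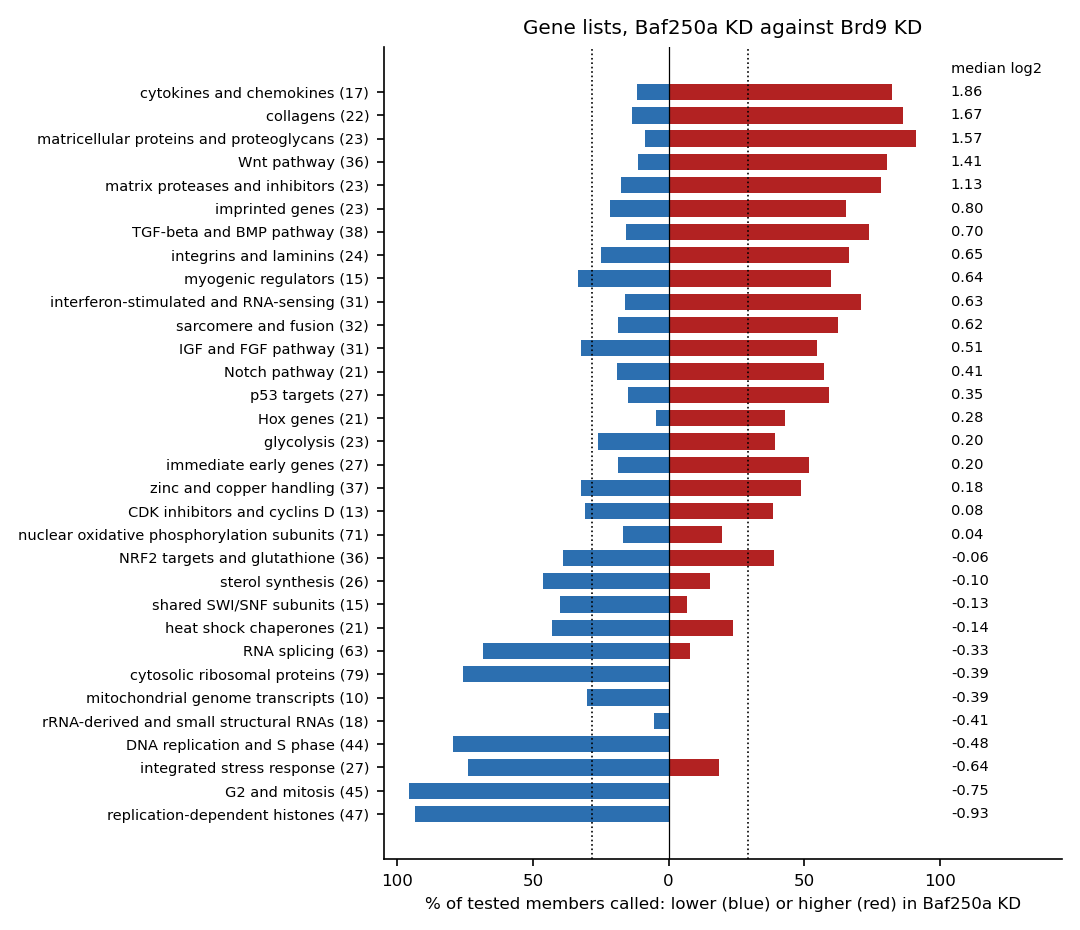
For each gene list (number of members tested in parentheses), bars give the percentage of tested members called lower (blue, left) or higher (red, right) in *Baf250a* KD, and the column at the right gives the median log2 difference. Dotted lines mark the percentages over all genes, 28.4% lower and 29.2% higher. Cytokines, collagens, matricellular proteins and Wnt genes stand at the top, and histones and mitotic genes at the bottom with no member called higher.

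The myoblast label was checked against 10 marker genes. All had counts, 3 were higher and 7 lower in *Baf250a* KD, and their summed level was 1979 to 2134 CPM there and 2702 to 3179 CPM in *Brd9* KD. *Vcam1*, the myoblast adhesion marker with the largest positive difference, gave 1.36 ± 0.071. Markers of other mesenchymal cells were higher in *Baf250a* KD. Of 9 fibroblast and fibroadipogenic markers, 5 were tested and all 5 were higher, with a summed level of 204 to 218 CPM against 68.3 to 95.6 CPM and *Tcf21* at 0. The receptor *Pdgfra* was at 66.8, 57.6, 59.4, 54.1 and 59.5 CPM against 7.89, 9.32 and 10.8 CPM (2.70 ± 0.073, adjusted p = 6.47e-12) and *Ly6a*, which encodes Sca-1, gave 2.07 ± 0.097. Of 10 smooth muscle and pericyte markers, 9 were tested, 7 higher and 2 lower, with sums of 8115 to 9174 CPM against 3213 to 4172 CPM. *Pdgfrb* was at 793, 733, 726, 729.8 and 712 CPM against 129, 143 and 158 CPM (2.38 ± 0.054, adjusted p = 1.71e-12), and the contractile genes *Lmod1*, *Cnn1* and *Tagln* gave 3.69 ± 0.13, 2.19 ± 0.11 and 2.02 ± 0.14.

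Adipocyte markers were higher too, all 3 that were tested, of 10 listed. They summed to 125 to 148 CPM against 35.9 to 39.6 CPM, of which lipoprotein lipase (*Lpl*, 72.9 to 108 CPM against 9.95 to 17.2 CPM) was the larger part in *Baf250a* KD, and *Lep* was at 0. Osteoblast and chondrocyte markers, of which 4 of 12 were tested and all 4 were higher, summed to 294 to 359 CPM against 238 to 249 CPM, with *Ibsp* at 0. After correction for GC content and length only 2 members of that list were called, both higher. With the left-out Zn library of *Baf250a* KD added, 3 were, all higher. Epithelial, endothelial and immune markers stayed at or below 12.8, 2.35 and 19.3 CPM in sum in every library, with *Esrp1*, *Cdh5*, *Emcn*, *Cldn5* and *Cd3e* at 0. At these low levels the epithelial sum was also higher in *Baf250a* KD, at 7.68 to 12.8 CPM against 2.17 to 2.98 CPM. Of 10 epithelial markers 2 were tested, and both were at least 2-fold higher. Of 2 tested endothelial markers 1 was lower, and of 3 tested immune markers 1 was higher and 2 lower. In these bulk libraries a change in the share of cells of a type and a change in RNA per cell cannot be told apart, and the part that other cell types have in the matrix and signalling differences was not tested.

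Within each treatment the same contrast gave similar directions. From a fit with 1 coefficient per line and treatment, 6992 genes were called in NT (3456 higher, 3536 lower), 7192 in Cu (3745 and 3447) and 5971 in Zn (3300 and 2671), where *Baf250a* KD had 1 library that was assumed to vary like the others. All 3 contrasts called 3902 genes, 3825 of them with the same sign throughout. Of the 1921 genes with at least a 2-fold difference over all treatments, 1906 had the same sign in NT, Cu and Zn. These genes were picked on the same libraries, so that agreement was largely built in. *Col1a1* gave 5.10, 5.30 and 5.20 in NT, Cu and Zn, *Nefl* -3.26, -3.05 and -3.06, and *Cdk1* -1.24, -1.26 and -1.1.

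Whether the difference between the lines itself changed with the metals was tested with both interaction terms at once. Of the genes tested, 813 (5.54%) passed (edgeR), of which 479 were also called over all treatments and 75 were among the 2-fold genes. Taken singly, the Zn term passed for 577 genes (3.93%), 487 of them with a more positive difference in Zn than in NT and 90 with a more negative one. That count was 92 without NT 2 of *Baf250a* KD, 1135 without Zn 1 of *Brd9* KD, 95 with the shallow library added and 13 with all 24 libraries. With every gene of at least 1 count the split was 450 more positive and 436 more negative. The Cu term passed for 0 genes in the main edgeR fit (0%), with 733 at an unadjusted p under 0.05. On every gene of at least 1 count it passed for 25. DESeq2 was run on both terms together, where it called 1185. The Zn term rests on the single Zn library of *Baf250a* KD, which had the lowest score on the second principal component. The trend of level on GC content in that library, 0.137 log2 units per 10 points of GC, was the highest of the 11. The next was 0.093. Across 14578 genes the Spearman correlation with GC content was 0.275 for the Zn term. For the Cu term, which passed for 0 genes in the main fit, it was -0.317. Both are given as a description. With the shallow Zn library added, 276 genes passed, and with all 24 libraries in the fit, 71. Leaving out 1 library at a time gave between 200 genes, without Cu 1 of *Baf250a* KD, and 1539, without Zn 1 of *Brd9* KD.

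Genes named by the smallest p of that test show what moved. *H1f1* was at 94.7 and 101 CPM in NT, 104 and 113 in Cu and 230.3 in Zn in *Baf250a* KD, and at 308 and 318, then 339 and 352, then 305 and 273 CPM in *Brd9* KD (change of the difference in Zn 1.35 ± 0.12, adjusted p = 0.000625). The ribosomal protein gene *Rpl11* was at 89.2 and 97.5 CPM in NT and 198 CPM in Zn in *Baf250a* KD (*Brd9* KD 148 and 148 CPM, then 143 and 137 CPM, 1.17 ± 0.13, adjusted p = 0.00358). *Lonp1*, a mitochondrial protease, went from 119 and 117 to 204 CPM in *Baf250a* KD, near the 242 and 235 CPM of *Brd9* KD (0.72 ± 0.098). In each of these the single Zn library of *Baf250a* KD differed from its other 4. *Atp5j2*, a subunit of ATP synthase, behaved alike (47.3 and 44.4 CPM in NT and 104 in Zn, 1.28 ± 0.14). *Tagln* was higher in the Zn library of *Baf250a* KD (753 CPM) and lower in those of *Brd9* KD (112 and 104 CPM) than in NT (1.08 ± 0.12). *Mt2* had the opposite sign, with a smaller rise in *Baf250a* KD than in *Brd9* KD (-1.14 ± 0.12, adjusted p = 0.00358).

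By list, 21 of 44 S phase genes depended on treatment, and the Zn term passed for 20, all with a more positive difference in Zn than in NT. They numbered 19 of 79 among ribosomal protein genes, 15 of 71 among oxidative phosphorylation genes and 11 of 45 among genes of G2 and mitosis, beside 5.54% of all genes. With all 24 libraries in the fit these counts were 8, 0, 0 and 3. *Ccne1*, for example, was at 25.9 and 21.5 CPM in NT and 38.6 CPM in Zn in *Baf250a* KD, where *Brd9* KD had 52.9 and 49.2 CPM in NT and 50.6 and 50.1 CPM in Zn.

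**Figure D5:**
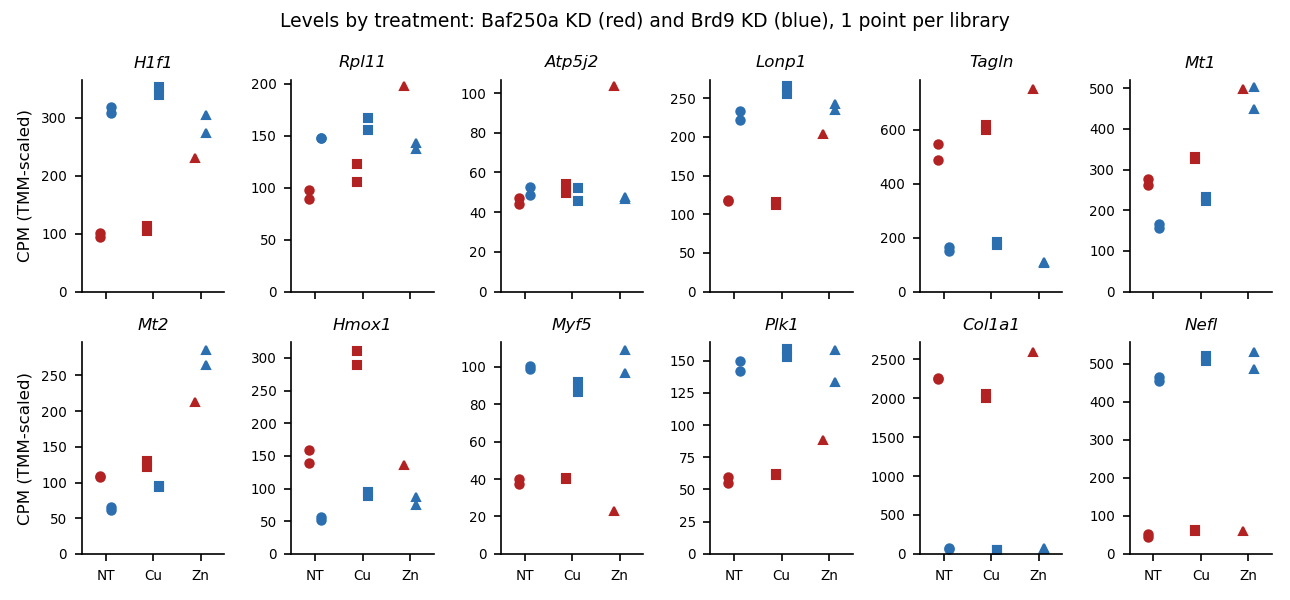
CPM (linear y axes from 0) of 12 genes by treatment, 1 point per library, *Baf250a* KD in red and *Brd9* KD in blue. The single Zn point of *Baf250a* KD departs from its NT and Cu points in *H1f1*, *Rpl11*, *Atp5j2* and *Lonp1*, the metallothioneins *Mt1* and *Mt2* are highest in Zn in both lines, and *Col1a1* and *Nefl* keep the gap between lines in every treatment.

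The scr libraries, which took no part in the tests, place these differences beside control cells. Of the 1155 genes at least 2-fold higher in *Baf250a* KD, the scr mean was below both lines for 863, between them for 282 and above both for 10. It was nearer to *Brd9* KD for 1092. Of the 766 genes at least 2-fold lower, the scr mean was between the lines for 386, above both for 350 and below both for 30, and nearer to *Brd9* KD for 661. Genes of the first kind include *Igf1*, at 0.0637 to 0.279 CPM in scr, *Sfrp2* at 1.75 to 2.69 CPM and *Lama4* at 0.0593 to 0.186 CPM, each below *Brd9* KD. Genes of the kind above both lines include *Mmp10*, *Xirp2* and *Atf3*. The scr mean was nearer to *Baf250a* KD for 63 of the higher and 105 of the lower genes. *Postn*, *Parp14*, *Map2* and *Pax7* are examples, the last at 0.948 to 1.62 CPM in scr.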

How the data were processed

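The libraries were rRNA-depleted and made with a directional kit. Per the study's methods, reads were aligned to mm10 with STAR, keeping unique alignments, and counted per gene by strand with featureCounts; the authors deposited the resulting table of raw counts (55291 symbols, of which 53698 matched GENCODE M21), which is the input here. Their tables of log2 fold changes, standard errors and p-values between lines were not used, and 0 per-sample columns were left unused. Every line and treatment came from the sample titles, since a treatment tag disagrees with some of them.

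Of the 11 libraries compared (total counts 12719173 to 28759670), genes were kept with edgeR's filterByExpr, scaled by TMM and tested with the quasi-likelihood F test (edgeR 4.0.16, R 4.3.3) with line and treatment as terms. Dependence on treatment was the joint test of both interaction terms, and each treatment was tested in the same fit. P-values were adjusted over all 14679 genes by Benjamini-Hochberg, with a threshold of 0.05. CPM are the counts as edgeR scales them to the TMM-adjusted library size, and the CPM of 1 gene should not be set against that of another, since length was not taken out. CPM of the KD lines used factors from the 11 libraries and CPM of scr used factors from all 24. These scales are not the same. The place of the scr mean relative to both lines was found with factors from all 24 for every line. Genes were named as follows: the 10 highest and 10 lowest log2 differences with mean CPM of at least 5 and no overlap, up to 4 called members per list with mean CPM of at least 1, all SWI/SNF subunits, the genes the study names, and 6 by the test for dependence on treatment. *Myod1* and *Axin2*, and the markers listed at 0, stand outside that rule. The members and gene lists were chosen with earlier results of these data known. Alternatives were DESeq2 1.42.0, limma 3.58.1 (voom), RLE factors, other low-count filters, a spline correction for GC content and length, the replicate block, other sets of libraries, thinned counts, no treatment term, a minimum fold of 1.5 and leaving out each library. On simulated counts for the line comparison (14492 genes), 87.5% of 200 genes changed 2-fold were recovered. For dependence on treatment in the Zn library of *Baf250a* KD (14519 genes) 35.5% were.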

Additional observations from a re-analysis of the deposited data

Results flagged for a closer look

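Of 16 library measures by line that were examined for a value far from the rest, 1 stood apart: the rRNA-derived share of counts in the Cu 1 library of *Brd9* KD was 1.98%, where the nearest of the other 5 was 1.205%. Chance alone sets about 1 in 20 such groups apart.

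Of 153 genes named and tested, *mt-Nd1* and *mt-Nd2* left aside, 19 showed a difference between the lines that changed with treatment (edgeR quasi-likelihood test of both interaction terms, adjusted over all genes). Of all genes tested, 5.54% did. Since 6 of the named genes were picked for the smallest p of this same test, these shares cannot be compared. The genes left aside, *mt-Nd1* and *mt-Nd2*, passed this test as well. *H1f1* had the smallest adjusted p (0.000625), followed by *Atp5j2*, *Lonp1*, *Mt2*, *Rpl11* and *Tagln* (0.00358 each) and *Myf5* (0.00692). *H1f1*, *Lonp1*, *Mt2*, *Myf5* and *Tagln* were called in all 19 other settings, *Atp5j2*, *Rpl11* and *Hmox1* (adjusted p = 0.0105) in 18. *Myf5* was at 37.4 and 39.8 CPM in NT and 23.2 CPM in Zn in *Baf250a* KD, against 99.0 and 101 CPM and 96.9 and 109 CPM in *Brd9* KD.

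The adjusted p was 0.0173 for *Mt1*, 0.0183 for *Peg10*, 0.0195 for *Maml2*, 0.0202 for *Postn* and 0.0252 for *Ccne1*, which were called in 15, 13, 15, 16 and 16 of the 19. It was 0.0264 for *Pdk1*, 0.0287 for *Plk1*, 0.0316 for *Cnn1*, 0.032 for *Mcm10*, 0.0429 for *Smarcd3* and 0.0438 for *Nefm*, which were called in 11, 12, 10, 10, 7 and 9. The Zn values of *Baf250a* KD behind these tests come from 1 library, whose mitochondrial share of 0.883% was below the 1.27% to 1.69% of the other 4. Its part in them was not tested.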

How the results depend on the processing

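The 8452 genes called between the lines numbered 7826 to 8935 under all other tools, filters, scalings and sets of libraries run on the same null, and 7769 to 8786 without 1 library (8413 in DESeq2, of which 8301 were shared), but 2397 when more than 1.5-fold was required. The counts within NT, Cu and Zn stayed within 1.5 times under the alternatives run on them, which left out voom, the 1.5-fold minimum and the fit with no treatment term. For dependence on treatment, 813 genes became 1624 with every gene of at least 1 count, 276 with the shallow library and 71 with all 24 libraries, and 200 to 1539 without 1 library (200 and 362 without Cu 1 and Cu 2 of *Baf250a* KD, 469 without its NT 2, 467, 330, 1539 and 386 without Cu 1, Cu 2, Zn 1 and Zn 2 of *Brd9* KD); the cause was not tested. Its Zn 1 library could not be left out of that test, being the only one of its kind. Deviations of same-numbered replicates correlated at -0.136 to 0.292 over 10 pairs of groups, 4 of them over 0.1. The highest were 0.292 (NT and Zn of *Brd9* KD) and 0.229 (NT of *Baf250a* KD, Zn of *Brd9* KD). NT 2 of *Baf250a* KD and NT 2 and Zn 2 of *Brd9* KD had the lowest GC trends (-0.199, -0.213 and -0.205). Their scores on the second principal component were the highest (22.8, 19.3 and 22.3). What these libraries share was not tested. With the replicate block 8384 and 569 genes were called. *Arid1a* stayed between -1.69 and -1.56 and *Brd9* between 1.23 and 1.41 without 1 library. Of 140 called genes in the text, the targets, *mt-Nd1* and *mt-Nd2* aside, 119 kept call and direction in all 23 settings. Directions turned for *Mt2* without a treatment term (-0.084). Otherwise they turned for genes not called in the main fit, where *Atp5j2* gave 0.282 and the others lay nearer 0. These were *Pbrm1* (-0.001 with a mean CPM of at least 1, -0.126 with GC and length correction, which made a call, -0.061 with the shallow library, -0.035 with all 24, and -0.09 to 0.162 without single libraries, 6 of them negative), *Gpr137b* (-0.001 with a mean CPM of at least 1, -0.047 with GC correction, -0.022 to 0.078 without single libraries, 5 of them negative), *Arid2* (-0.067 to 0.065 without single libraries, positive without Zn 1 of *Baf250a* KD, and 0.001 without Zn 2 of *Brd9* KD), *Bicra* (-0.195 to 0.014) and *Atp5j2* (-0.022 to 0.357), the last pair turning without Zn 1 of *Baf250a* KD. The median over all genes lay between -0.055 and 0.004 in all settings. Few reads limit genes near 0 CPM in 1 line, such as *Col2a1*, *Rnf43* and *Mmp10*.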
